A study of Rattus norvegicus with 47 samples.

Results

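Glul-high and Glul-low carcinomas are the 8 frozen liver carcinomas of a rat tumour study, split by the level of Glul, the gene of glutamine synthetase. Of the 47 arrays of the series, 28 held frozen tissue and 8 of these carried a carcinoma label. A carcinoma was called Glul-high where its main Glul probe set was above 12 on the log2 scale (5 arrays) and Glul-low where it was below 11 (3 arrays). The split used no mutation label. Because it used Glul, the levels of Glul are given as a description without a test, and Glul was left out of every count. The other genes were measured on the same arrays that were sorted, so a p-value below does not say what a labelled condition did. It sets the difference along the split against a spread taken from all 26 labelled frozen arrays, not from the 8 tumours alone.

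All tumours and the surrounding liver came from male Wistar rats. Each rat had 1 dose of N-nitrosomorpholine, a nitrosamine that starts liver tumours (250 mg/kg at 4 weeks of age), then 3 weeks of recovery, then drinking water with phenobarbital (50 mg/kg a day) over at most 17 months. The surrounding liver had the same treatment, so no comparison here is with untreated liver. The Glul-high tumours were 1 from rat 10, 2 from rat 21 and 2 from rat 23. The Glul-low tumours were 1 from each of the same 3 rats. Surrounding liver (n = 7), adenomas (n = 6) and nodules (n = 5) from 5 rats were used beside them. No label says whether the tumours of 1 rat arose separately.

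The study labels 4 of the 8 carcinomas with a mutation of beta-catenin, and the labels and the Glul level did not coincide. Of the 5 Glul-high tumours, 3 carried the label (1 from rat 21 and both from rat 23) and 2 did not (rat 10 and the other tumour of rat 21). Of the 3 Glul-low tumours, 1 carried it (rat 10) and 2 did not. For the labelled Glul-low tumour of rat 10, the group label names the mutation and the tissue name does not.

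Beta-catenin carries the Wnt signal into the nucleus, where it joins TCF and LEF factors to switch on target genes. In normal liver this signal is strong around the central vein. There it maintains pericentral genes such as those of glutamine synthetase, bile acid synthesis and several cytochromes P450, and it holds down periportal genes such as those of gluconeogenesis and urea synthesis. Liver tumours with an active beta-catenin are known for high glutamine synthetase. Array values below are log2 levels of 1 probe set per gene, and they are compared between samples of 1 gene, never between genes.

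The recognition motif of TCF and LEF factors has the core CTTTGA, often followed by T. No promoter was at hand for Lgr5, Tbx3, Znrf3 and Rragd, so these were not searched. The promoters of the 4 genes named below that were higher in Glul-high tumours and hold CTTTGAT within 250 bases before their start are shown here. Each is read 5′ to 3′ on the strand of its gene, from RefSeq on the GRCr8 build, with the motif in capitals (ATCAAAG where it lies on the opposite strand).
Axin2, chr10:94398535-94398784, plus strand: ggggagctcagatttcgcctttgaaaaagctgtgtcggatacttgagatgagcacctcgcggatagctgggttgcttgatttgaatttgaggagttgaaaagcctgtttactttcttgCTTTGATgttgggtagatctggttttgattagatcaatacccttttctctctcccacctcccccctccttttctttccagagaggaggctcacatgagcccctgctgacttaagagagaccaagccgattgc
Lect2, chr17:8049784-8050033, plus strand: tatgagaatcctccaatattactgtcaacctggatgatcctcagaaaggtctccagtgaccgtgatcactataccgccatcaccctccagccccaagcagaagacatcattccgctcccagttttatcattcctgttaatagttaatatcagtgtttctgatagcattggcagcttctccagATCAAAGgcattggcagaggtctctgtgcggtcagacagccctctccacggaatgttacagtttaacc
Cyp1a2, chr8:66978150-66978399, minus strand: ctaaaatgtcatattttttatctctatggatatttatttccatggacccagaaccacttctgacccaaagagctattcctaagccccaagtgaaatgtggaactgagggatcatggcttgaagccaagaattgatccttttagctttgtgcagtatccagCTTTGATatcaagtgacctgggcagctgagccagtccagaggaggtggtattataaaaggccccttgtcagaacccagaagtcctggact
Cyp3a9, chr12:21960161-21960410, minus strand: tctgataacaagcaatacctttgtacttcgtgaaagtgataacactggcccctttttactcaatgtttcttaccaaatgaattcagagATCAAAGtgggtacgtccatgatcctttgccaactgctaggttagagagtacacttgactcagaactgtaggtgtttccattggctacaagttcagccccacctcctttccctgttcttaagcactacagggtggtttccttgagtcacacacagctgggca

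On either strand, CTTTGAT was in 11 of the 219 promoters at hand of genes higher in Glul-high tumours (5.02%) and in 1 of 122 of genes lower there (0.82%). It was in 261 of the 11732 promoters of all genes tested (2.22%). Other forms that were also searched gave shares closer together. CTTTGA, which CTTTGAT contains, was in 13.7% of the higher, 14.8% of the lower and 11.2% of all tested genes. CTTTGNT, which also contains CTTTGAT, was in 14.6%, 13.1% and 12.9% in the same order. In a window of 300 bases that takes in the first bases after the start, CTTTGAT was in 5.48%, 0.82% and 2.5%. These shares are a description, since the forms and windows were compared after their values were seen, and a match is no proof of binding.

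Glul itself lay far apart in the sorted tumours. On the probe set used for the split, the Glul-high tumours had 13.02 (rat 10), 13.32 and 12.69 (rat 21), and 12.96 and 13.31 (rat 23). The Glul-low tumours had 9.26, 9.56 and 10.39 (rats 10, 21 and 23), and surrounding liver had 9.91 to 10.80 with a median of 10.33. The lowest Glul-high and the highest Glul-low tumour were therefore on either side of a wide gap. Another probe set of Glul had 12.51 to 13.18 in Glul-high tumours, 9.61 to 10.48 in Glul-low tumours and 8.76 to 9.82 in surrounding liver. On the third probe set the ranges were 11.81 to 12.73, 8.69 to 9.64 and 6.86 to 9.05 in the same order.

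**Figure D1:**
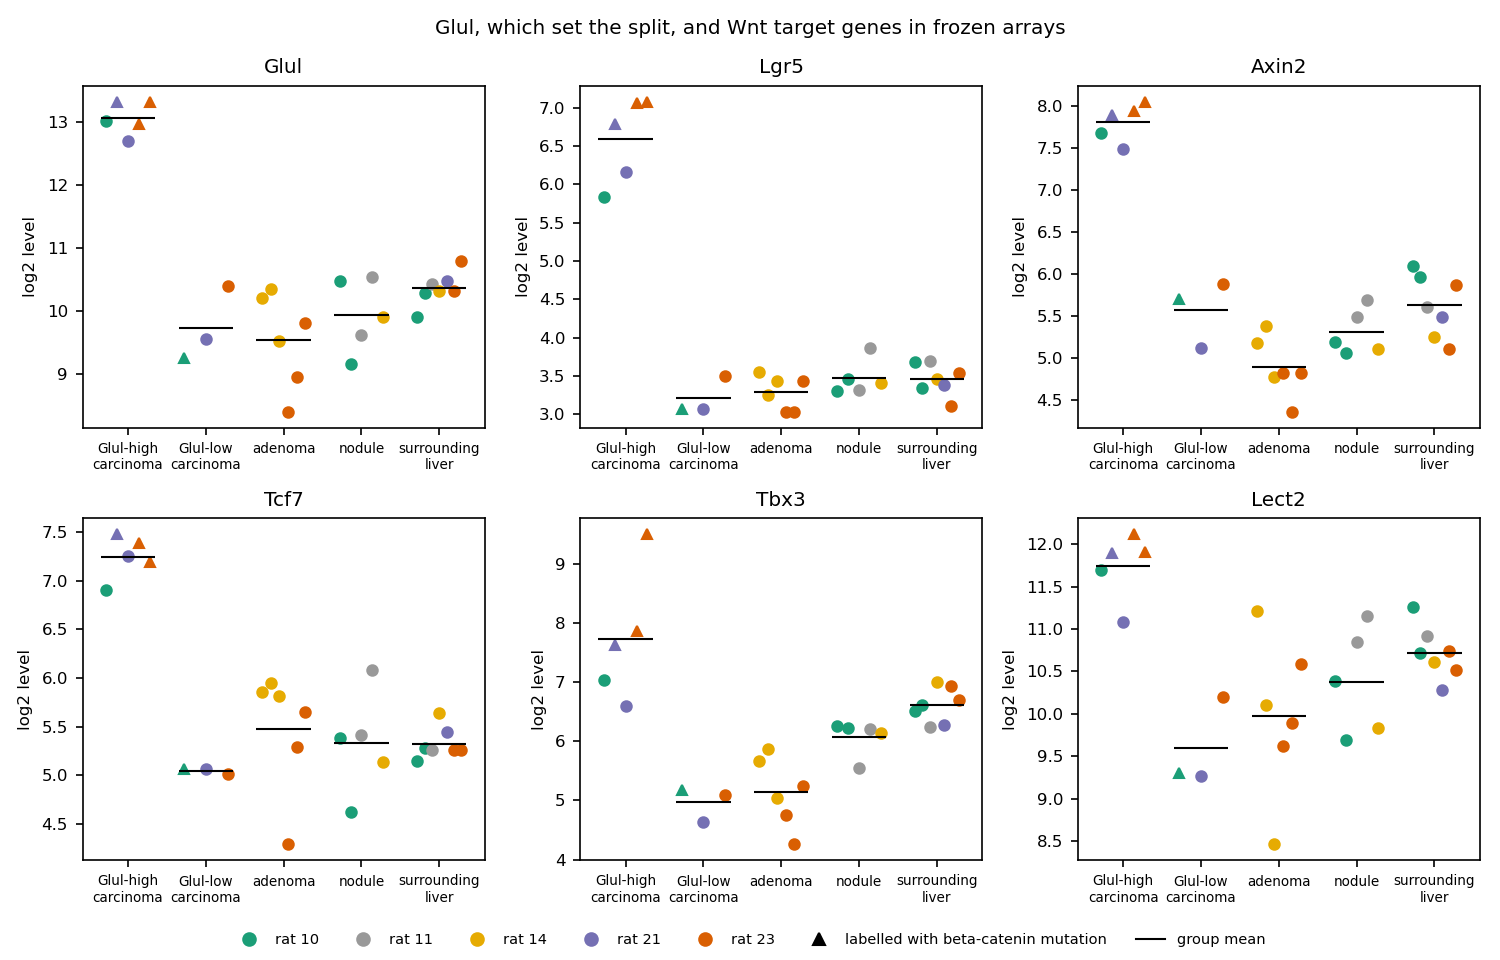
Log2 level (vertical axis) of Glul and 5 Wnt target genes in each frozen array, by group (horizontal axis), with colours for rats, triangles for tumours labelled with a beta-catenin mutation and lines for group means. Lgr5 lay at 5.84 to 7.08 in the 5 Glul-high tumours, against 3.08 to 3.50 in the 3 Glul-low tumours and 3.11 to 3.70 in surrounding liver.

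Across the other 14216 genes, 256 were higher and 156 lower in Glul-high than in Glul-low carcinomas (81 and 74 of them at least 2-fold). The test was limma with the rat as a block and a Benjamini-Hochberg adjusted p under 0.05. In all, 2.9% of the genes were called, 1.8% higher and 1.1% lower. The difference had the same sign in each of the 3 rats for 407 of the 412. The calls were chosen for this difference in the same rats, so a shared sign, here or for single genes below, is no further support. Its share among all genes was not counted. Grouped by the mutation label in place of Glul, the same 8 tumours gave 0 called genes, with 723 at an unadjusted p under 0.05, against 2176 for the Glul split. The 2 groupings are not on equal terms. The split was drawn from expression on these arrays and the label was not, and the label of 1 rat 10 tumour is unclear. Against surrounding liver, limma called 3044 genes in Glul-high carcinomas (21.4%; 1469 or 10.3% higher, 1575 or 11.1% lower) and 1803 in Glul-low carcinomas (12.7%; 730 or 5.14% higher, 1073 or 7.55% lower). These last 2 comparisons share the surrounding arrays, and they rest on 5 and 3 tumours, so their counts are not equally sensitive. Of the called genes, 245 were at least 2-fold higher and 313 at least 2-fold lower in Glul-high carcinomas. In Glul-low carcinomas these were 234 and 227.

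The count depended on single tumours. Without the Glul-low tumour of rat 10, the one with the unclear label, 134 genes were called. Without the labelled Glul-high tumour of rat 21 the count was 259, and without 1 tumour of rat 23 (beta-catenin replicate 3) it was 268. The other 5 fits that left out 1 carcinoma called 282 to 416. In all 8 such fits, 92 genes were called (70 higher, 22 lower). These fits still shared the spread of the other frozen groups. With the carcinomas fitted alone and the rat as block, 28 of 63 called genes examined singly kept their call and 35 lost it. Without the block 22 kept it and 41 lost it, and no sign turned in either fit.

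Lgr5, Axin2 and other genes of the Wnt pathway's own feedback loop were higher in Glul-high carcinomas. Of 22 measured Wnt targets, 8 were higher in Glul-high carcinomas (1.8% of all genes) and 0 lower (1.1% of all genes), with a median of 0.18 against 0.02 for all genes. The groups did not overlap for 7 of the 22 in the higher direction, against 5.58% of all genes, and for 2 in the lower direction, against 4.44%. Most Wnt targets were thus not called, and the list's median was small.

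Lgr5, a receptor for R-spondins that strengthens the Wnt signal, had 5.84, 6.78, 6.17, 7.06 and 7.08 in Glul-high tumours. These values, like all lists of 5 below, are in the order rat 10, labelled and unlabelled tumour of rat 21, and both tumours of rat 23. In Glul-low tumours (rats 10, 21 and 23) Lgr5 had 3.08, 3.08 and 3.50, and in surrounding liver 3.11 to 3.70 (median 3.47). All 5 Glul-high tumours stood above every other frozen group. The Glul-low tumours of rats 10 and 21 were just below the lowest surrounding liver, and that of rat 23 was within the surrounding range. The difference was 3.35 ± 0.22 (SE; limma adjusted p = 1.04e-08, higher in 3 of 3 rats). The values used here come without detection calls, so whether levels this low were above background was not tested, here or for other genes near the bottom of the scale, and folds against them may be lower bounds. Glul-low tumours did not pass against surrounding liver (-0.16, adjusted p = 0.676).

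Axin2, a scaffold of the complex that degrades beta-catenin, had 7.68, 7.89, 7.48, 7.94 and 8.05 in Glul-high tumours. It had 5.70, 5.12 and 5.88 in Glul-low tumours and 5.11 to 6.10 (median 5.61) in surrounding liver. The groups did not overlap, and both unlabelled Glul-high tumours were above the labelled Glul-low one. The difference was 2.28 ± 0.23 (4.85-fold, limma adjusted p = 6.25e-06). Tcf7, a transcription factor that partners beta-catenin, had 6.91, 7.48, 7.26, 7.39 and 7.20 in Glul-high tumours, against 5.06, 5.06 and 5.01 in Glul-low tumours and 5.14 to 5.64 in surrounding liver. Its difference was 2.19 ± 0.25 (4.55-fold, adjusted p = 3.29e-05). The Glul-low values of Tcf7 were nearly equal to each other and below all 7 surrounding livers, though they did not pass against them (-0.17, adjusted p = 0.711).

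Other members of the feedback group moved less. Znrf3, a ligase that removes Wnt receptors, had 7.29 to 7.73 in Glul-high tumours, against 6.33 to 6.45 in Glul-low tumours and 5.87 to 6.99 in surrounding liver (1.16 ± 0.26, limma adjusted p = 0.0195). Tnfrsf19, a membrane receptor, had 4.31 to 4.72 in Glul-high tumours, against 3.54 to 3.80 in Glul-low tumours and 3.58 to 4.24 in surrounding liver (0.82 ± 0.16, adjusted p = 0.00537). For neither gene did the 2 kinds of tumour overlap. Apcdd1, a membrane inhibitor of Wnt, did overlap, at 5.65 to 8.14 in Glul-high and 4.76 to 5.87 in Glul-low tumours (1.31 ± 0.34, adjusted p = 0.0389), and its highest values were those of rat 23. Nkd1, an inhibitor that binds Dishevelled, had a difference of 0.80 ± 0.27 that did not pass (adjusted p = 0.119).

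Tbx3 and Lect2 differed from surrounding liver in opposite directions in the sorted tumours, or leaned that way. Tbx3, a transcriptional repressor of pericentral hepatocytes, had 7.04, 7.62, 6.60, 7.86 and 9.50 in Glul-high tumours. It had 5.18, 4.63 and 5.09 in Glul-low tumours and 6.24 to 7.01 in surrounding liver (median 6.62). Glul-high tumours rose against surrounding liver by 1.27 (limma adjusted p = 0.00621) and Glul-low tumours fell by 1.5 (adjusted p = 0.00925). The difference was 2.77 ± 0.37 (adjusted p = 0.000225), and over 4 probe sets it ranged from 0.46 to 2.77, with 2 called. Lect2, a secreted liver protein, had 11.08 to 12.12 in Glul-high tumours, against 9.27 to 10.20 in Glul-low tumours and 10.28 to 11.26 in surrounding liver (2.16 ± 0.40, adjusted p = 0.00455). Glul-low tumours did not pass against surrounding liver for Lect2 (-0.98, adjusted p = 0.104).

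Some textbook Wnt targets did not follow Glul. Ccnd1, the gene of cyclin D1, had 10.25, 10.50, 10.50, 10.21 and 10.86 in Glul-high tumours. It had 9.89, 10.00 and 10.81 in Glul-low tumours and 7.10 to 8.71 in surrounding liver. The tumours of both kinds overlapped and lay above all surrounding livers. Ccnd1 differed by 0.12 ± 0.31 between them (limma adjusted p = 0.92) and rose against surrounding liver by 2.50 in Glul-high (adjusted p = 2.0e-06) and 2.37 in Glul-low tumours (adjusted p = 0.000139). Myc, a growth-promoting transcription factor, had 8.51 to 9.81 in Glul-high and 9.29 to 10.36 in Glul-low tumours (-0.31 ± 0.22, adjusted p = 0.567). It rose against surrounding liver by 0.90 and by 1.21 (adjusted p = 0.00144 and 0.00105). Bambi, a pseudoreceptor for TGF-beta, differed by 0.28 ± 0.26 (adjusted p = 0.695).

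Lgr5, Axin2, Tcf7, Tbx3 and Lect2 were called in each of the 8 fits that left out 1 carcinoma. Tnfrsf19 lost its call without the Glul-low tumour of rat 10 (limma adjusted p = 0.0572), Znrf3 without that tumour, either other Glul-low tumour or the Glul-high tumour of rat 10 (0.0512 to 0.0950), and Apcdd1 without any of 6 tumours, the exceptions being the unlabelled Glul-high ones (0.0625 to 0.224).

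**Figure D2:**
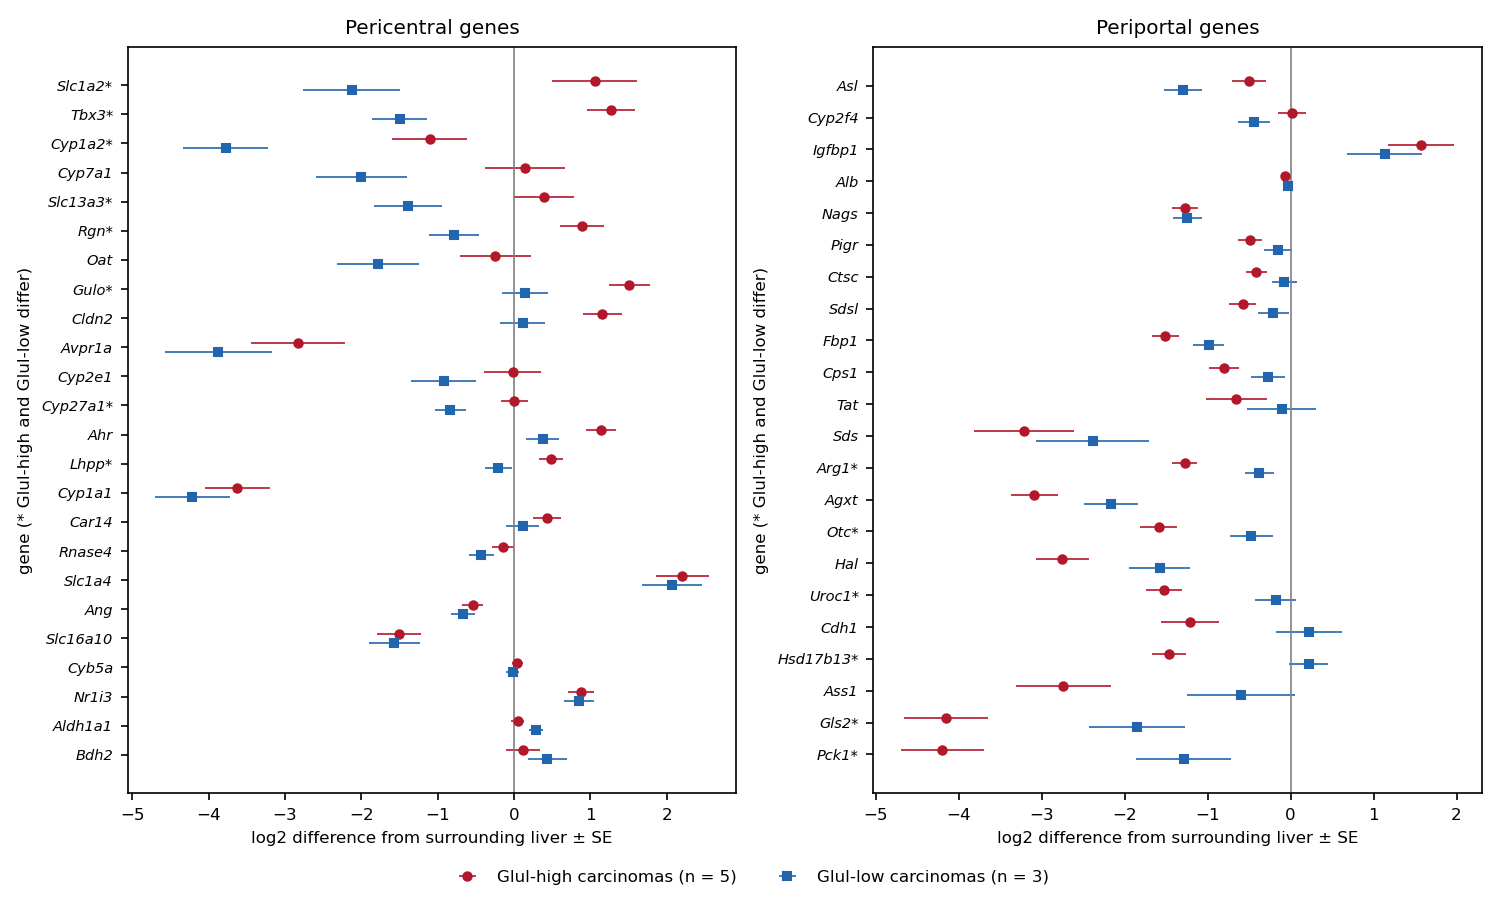
Log2 difference from surrounding liver (horizontal axis, ± SE of the fit) of each measured pericentral gene (left) and periportal gene (right), for Glul-high carcinomas (circles, n = 5) and Glul-low carcinomas (squares, n = 3). Stars mark genes that differed between these kinds, 8 pericentral and 6 periportal; Glul is left out.

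Pericentral genes leaned higher in Glul-high carcinomas, and many lay below surrounding liver in Glul-low carcinomas, as the plot of lobular genes by tumour kind shows. Of 24 measured pericentral genes other than Glul, 8 were higher and 0 lower, beside 1.8% and 1.1% of all genes, with a median of 0.81 against 0.02 for all genes. The groups did not overlap for 13 of the 24, all in the higher direction, beside 5.58% of all genes. Against surrounding liver, 8 rose and 4 fell in Glul-high carcinomas (10.3% and 11.1% of all genes), and 3 rose and 11 fell in Glul-low carcinomas, where 5.14% of all genes rose and 7.55% fell.

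Slc1a2, the glutamate transporter GLT-1, had 7.28, 6.25, 5.69, 9.36 and 9.42 in Glul-high tumours. It had 4.16, 4.73 and 4.42 in Glul-low tumours and 6.30 to 7.26 (median 6.79) in surrounding liver. The Glul-high tumours spread on both sides of surrounding liver, with both tumours of rat 23 above it and both of rat 21 below it, while every Glul-low tumour was below it. The difference was 3.18 ± 0.66 (9.08-fold, limma adjusted p = 0.00882; 0.62 on the other probe set, also called). Glul-high tumours did not pass against surrounding liver (1.06, adjusted p = 0.199), and Glul-low tumours fell by 2.13 (adjusted p = 0.0319).

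Cyp1a2, a cytochrome that oxidizes aromatic amines, had 10.62, 9.48, 8.83, 11.04 and 10.84 in Glul-high tumours. It had 7.94, 7.97 and 6.87 in Glul-low tumours and 11.03 to 12.36 in surrounding liver. All Glul-low tumours were below all Glul-high ones, and 4 of the 5 Glul-high tumours were below every surrounding liver. The difference was 2.67 ± 0.58 (6.38-fold, limma adjusted p = 0.0127). Against surrounding liver, Glul-low tumours fell by 3.78 (adjusted p = 0.000344) and Glul-high tumours had a difference of -1.10 that did not pass (adjusted p = 0.119).

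Rgn, the calcium-binding lactonase regucalcin, had 12.78 to 13.32 in Glul-high tumours, against 10.79 to 12.03 in Glul-low tumours and 11.92 to 12.37 in surrounding liver (1.68 ± 0.34, limma adjusted p = 0.0079). Gulo, the last enzyme of vitamin C synthesis in rats, had 11.87 to 12.25 in Glul-high tumours, against 10.17 to 11.26 in Glul-low tumours and 10.16 to 11.09 in surrounding liver (1.37 ± 0.31, adjusted p = 0.0198). Both rose in Glul-high tumours against surrounding liver (0.89 and 1.51, adjusted p = 0.0313 and 0.000351). The 2 bile acid enzymes of the list had another pattern. Cyp27a1, a sterol hydroxylase, was higher by 0.84 ± 0.21 (adjusted p = 0.0295), and Glul-low tumours fell by 0.84 against surrounding liver (adjusted p = 0.00924) while Glul-high tumours were at 0.01 (adjusted p = 0.985).

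Cyp7a1, the rate-limiting enzyme of bile acid synthesis, had 11.88, 11.48, 11.04, 10.92 and 11.27 in Glul-high tumours, against 8.14, 9.58 and 9.90 in Glul-low tumours and 10.98 to 11.79 in surrounding liver. The groups did not overlap, but the difference of 2.14 ± 0.61 did not pass (limma adjusted p = 0.0623). Also not passing were Oat, ornithine aminotransferase (1.54 ± 0.55, adjusted p = 0.156), the cytochrome Cyp2e1 (0.90 ± 0.44, adjusted p = 0.338), the tight junction gene Cldn2 (1.04 ± 0.30, adjusted p = 0.0669) and Ahr, the dioxin receptor (0.77 ± 0.23, adjusted p = 0.0743). For each of these 4 every Glul-high tumour was above every Glul-low one.

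The count of pericentral calls depended on single tumours. It was 1 of 24 without the Glul-low tumour of rat 10 (Tbx3), 3 without that of rat 21, 5 without either of 2 Glul-high tumours (the labelled one of rat 21 and beta-catenin replicate 4 of rat 23), and 6 or 7 without any other. Lhpp, a phosphatase (0.69 ± 0.18, limma adjusted p = 0.0421), and Slc13a3, a dicarboxylate transporter (1.78 ± 0.46, adjusted p = 0.0373), lost their calls in 6 and 7 of the 8 fits (adjusted p up to 0.35 and 0.209). Cyp27a1 lost its call in 5 (up to 0.277, the difference down to 0.53), Cyp1a2 and Slc1a2 also without the Glul-low tumour of rat 23 (0.0955 and 0.0639), and Rgn and Gulo without that of rat 21 (0.0848 and 0.154).

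Periportal genes went the other way. Of 22 measured, 6 were lower in Glul-high carcinomas and 0 higher (median -0.69), beside 1.1% and 1.8% of all genes. The groups did not overlap for 9 of 22 in the lower direction, beside 4.44% of all genes. Against surrounding liver, 17 fell and 1 rose in Glul-high carcinomas (11.1% and 10.3% of all genes), and 7 fell and 0 rose in Glul-low carcinomas (7.55% and 5.14% of all genes). The counts come from 5 and 3 tumours and are not equally sensitive. Arg1 and Otc are named here beyond the rule for named genes, after their values were seen, so that all 6 are given.

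Pck1, which controls gluconeogenesis, had 11.18, 5.45, 7.77, 7.63 and 9.43 in Glul-high tumours. It had 12.57, 10.42 and 11.20 in Glul-low tumours and 12.64 to 13.60 in surrounding liver. All 8 tumours were below surrounding liver, and the Glul-high tumour of rat 10 lay within the Glul-low range. The difference was -2.91 ± 0.59 (Glul-low 7.51-fold above Glul-high, limma adjusted p = 0.00772, lower in 3 of 3 rats).

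Hsd17b13, an enzyme of lipid droplets, had 8.92, 8.16, 8.06, 8.45 and 9.08 in Glul-high tumours, against 10.32, 10.35 and 10.03 in Glul-low tumours and 9.85 to 10.68 in surrounding liver. The Glul-low tumours lay inside the range of surrounding liver and the Glul-high tumours all below it. The difference was -1.69 ± 0.24 (limma adjusted p = 0.000392). Uroc1, urocanase of histidine breakdown, showed the same arrangement, with 9.56 to 10.82 in Glul-high tumours, against 11.48 to 11.78 in Glul-low tumours and 11.54 to 12.01 in surrounding liver (-1.34 ± 0.25, adjusted p = 0.00505), except that 1 Glul-low tumour was just below the surrounding range.

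The urea cycle enzymes Arg1 (arginase) and Otc (ornithine transcarbamylase) were lower by smaller amounts. Arg1 had 11.47 to 12.46 in Glul-high tumours, against 12.83 to 13.18 in Glul-low tumours and 13.23 to 13.64 in surrounding liver (-0.90 ± 0.18, limma adjusted p = 0.00622). Otc had 9.45 to 11.28 in Glul-high tumours, against 11.74 to 11.93 in Glul-low tumours and 12.17 to 12.45 in surrounding liver (-1.12 ± 0.27, adjusted p = 0.0245). For both genes every Glul-low tumour stood between the Glul-high tumours and surrounding liver.

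Without 1 tumour, between 2 and 7 periportal genes were called lower, 2 without the Glul-low tumour of rat 21 and 3 without that of rat 10. Hsd17b13 and Uroc1 were called in all 8 such fits. Pck1 lost its call without either of those 2 tumours (limma adjusted p = 0.0543 and 0.0608), Arg1 without that of rat 21 (0.0735), and Otc without any Glul-low tumour or the labelled Glul-high tumour of rat 21 (0.0578 to 0.105).

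Genes of ammonia, glutamine and glutamate metabolism, the pathway to which Glul belongs, changed in both directions. Of 18 measured, 3 were higher and 3 lower in Glul-high carcinomas, beside 1.8% and 1.1% of all genes. The median was -0.08, against 0.02 for all genes. Glud1, glutamate dehydrogenase, had 13.07, 13.20, 13.26, 13.37 and 13.21 in Glul-high tumours. It had 12.49, 12.24 and 12.70 in Glul-low tumours and 12.23 to 12.43 in surrounding liver. The Glul-high tumours formed a narrow band above both other groups (0.74 ± 0.11, limma adjusted p = 0.000622). Gpt2, the mitochondrial alanine aminotransferase, was also higher (0.70 ± 0.14, adjusted p = 0.00742). Asns, asparagine synthetase, which uses glutamine as its nitrogen donor, had 7.45 to 8.56 in Glul-high tumours, against 5.93 to 7.05 in Glul-low tumours and 4.54 to 5.66 in surrounding liver. Asns was higher by 1.56 ± 0.36 (adjusted p = 0.0199), and both kinds rose against surrounding liver, by 3.15 and 1.59 (adjusted p = 6.47e-07 and 0.00493).

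Gls2, the liver glutaminase, which breaks glutamine down, had 7.92, 5.74, 6.36, 6.46 and 7.00 in Glul-high tumours. It had 10.59, 8.79 and 7.96 in Glul-low tumours and 10.86 to 11.68 in surrounding liver. All 8 tumours were below surrounding liver, and the lowest Glul-low tumour (rat 23) barely exceeded the highest Glul-high one (rat 10). The difference was -2.30 ± 0.60 (limma adjusted p = 0.0385). Slc38a4, an amino acid transporter, had 9.61, 8.16, 8.28, 7.83 and 8.80 in Glul-high tumours, against 11.81, 10.69 and 10.24 in Glul-low tumours and 11.69 to 12.15 in surrounding liver (-2.30 ± 0.33, adjusted p = 0.000392). Gpt, the cytosolic alanine aminotransferase, had 7.57 to 9.26 in Glul-high tumours and 9.40 to 11.50 in Glul-low tumours (-1.53 ± 0.37, adjusted p = 0.0266). The 2 alanine aminotransferases thus differed in opposite directions.

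Glud1 and Slc38a4 were called in all 8 fits without 1 carcinoma. With the carcinomas fitted alone, Glud1 was not called with the rat as block, nor Slc38a4 without it. Gpt2, Asns, Gpt and Gls2 all lost their calls without the Glul-low tumour of rat 10 (limma adjusted p = 0.0922, 0.170, 0.255 and 0.271), and Asns, Gpt and Gls2 also without 3, 3 and 5 other tumours, among them the Glul-low tumour of rat 21.

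**Figure D3:**
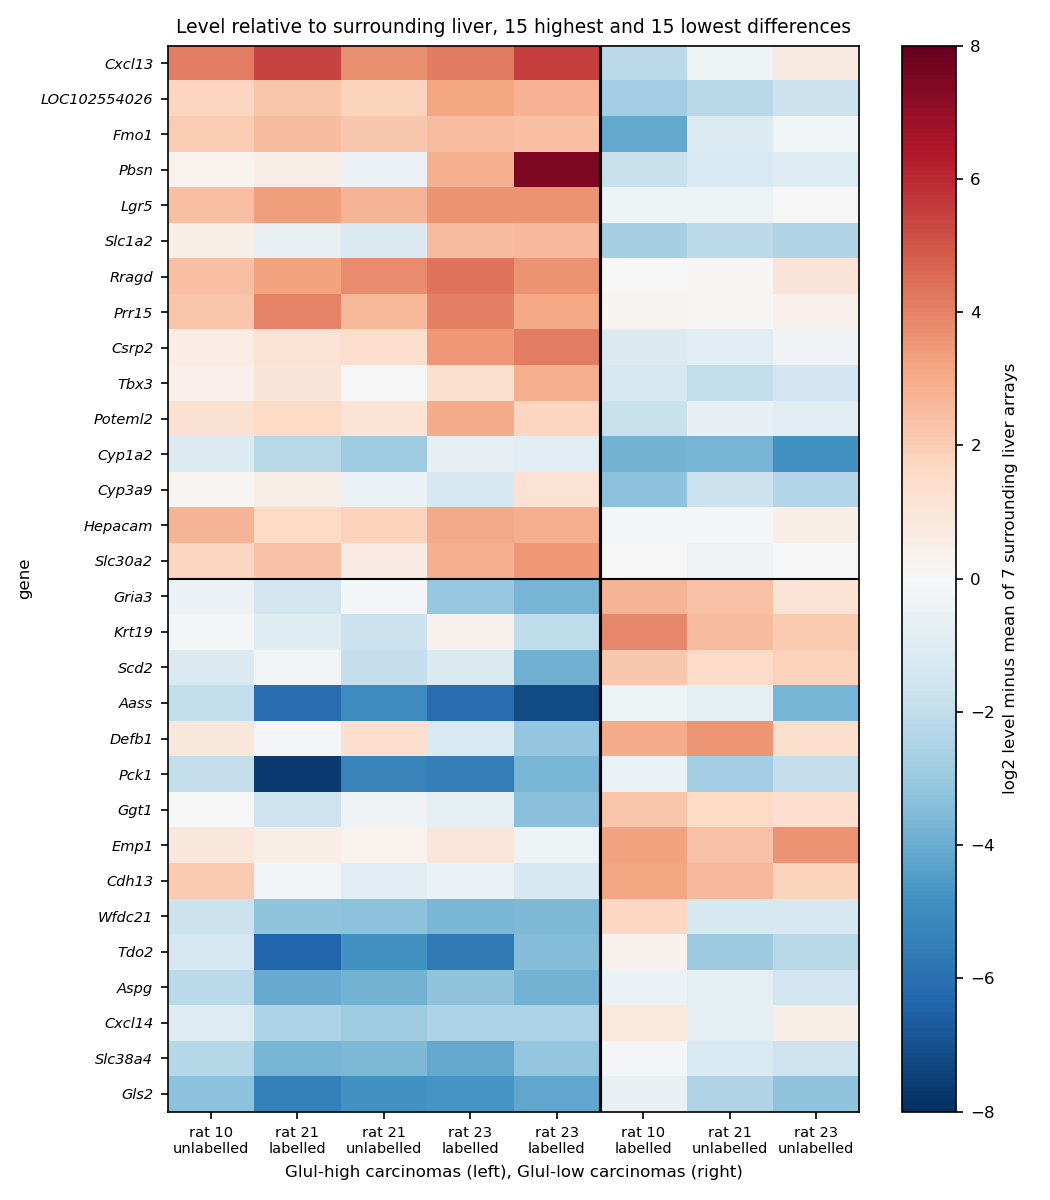
Log2 level minus the mean of the 7 surrounding livers (colour) of the 15 genes most higher and 15 most lower in Glul-high carcinomas (vertical axis), in each of the 8 carcinomas (horizontal axis). The genes were chosen for this difference; Cxcl13 was at 9.84 to 11.66 in Glul-high and 4.05 to 6.83 in Glul-low tumours.

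The largest differences lay outside the lists on Wnt and lobular genes. Cxcl13, a chemokine that attracts B cells, had 10.19, 11.52, 9.84, 10.26 and 11.66 in Glul-high tumours, against 4.05, 5.77 and 6.83 in Glul-low tumours and 5.68 to 6.89 (median 5.96) in surrounding liver. The Glul-high tumours were far above both other groups. The difference was 5.06 ± 0.57 (33.3-fold, limma adjusted p = 2.33e-05). The lymphocyte marker list, which includes B cell genes, had 0 of 13 called, beside 2.9% of all genes. Its mean log2 level was 4.31 to 4.64 in Glul-high tumours, 4.36 to 4.58 in Glul-low tumours and 4.62 to 4.80 in surrounding liver.

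LOC102554026, which the annotation does not name, was higher by 4.55 ± 0.38 (limma adjusted p = 5.62e-07), with 8.57 to 10.01 in Glul-high tumours, 4.13 to 5.12 in Glul-low tumours and 6.54 to 7.33 in surrounding liver. Fmo1, a flavin monooxygenase of drug metabolism, had 12.20, 12.71, 12.36, 12.65 and 12.57 in Glul-high tumours, against 6.12, 9.07 and 9.97 in Glul-low tumours and 9.64 to 10.87 in surrounding liver (3.96 ± 0.56, adjusted p = 0.000392). The Glul-high values of Fmo1 were close together and the Glul-low values wide apart, lowest in rat 10.

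Several genes were high in Glul-high tumours and in the lower part of the array's range in both other groups. Rragd, a Rag GTPase of the amino acid signal to mTORC1, had 6.51 to 8.40 in Glul-high tumours, against 4.05 to 5.10 in Glul-low tumours and 3.75 to 4.65 in surrounding liver (3.07 ± 0.29, limma adjusted p = 3.19e-06). Prr15, a proline-rich protein, had 6.04 to 7.85 in Glul-high tumours, against 3.86 to 4.18 in Glul-low tumours and 3.47 to 4.06 in surrounding liver (2.94 ± 0.31, adjusted p = 9.82e-06). Hepacam, a cell adhesion molecule, had 6.71 to 8.17 in Glul-high tumours, against 4.95 to 5.63 in Glul-low tumours and 4.83 to 5.48 in surrounding liver (2.37 ± 0.20, adjusted p = 5.62e-07). Slc30a2, a zinc transporter, followed the same arrangement (2.33 ± 0.32, adjusted p = 0.000273). For each of these 4 the Glul-low tumours did not pass against surrounding liver (adjusted p = 0.213 to 0.981).

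In rat 23 some genes reached levels not seen in the other Glul-high tumours. Pbsn, the gene of probasin, a secreted protein known from the rat prostate, had 5.11, 5.34, 4.36, 7.68 and 12.31 in Glul-high tumours, against 3.06, 3.60 and 3.83 in Glul-low tumours and 4.05 to 6.0 in surrounding liver. Outside rat 23 the Glul-high values of Pbsn lay within the range of surrounding liver. Its difference was 3.35 ± 0.86 (limma adjusted p = 0.0373). Csrp2, a LIM domain protein, had 6.82, 7.36, 7.67, 9.71 and 10.30 in Glul-high tumours, against 5.09 to 5.94 in Glul-low tumours and 5.99 to 6.61 in surrounding liver (2.87 ± 0.51, adjusted p = 0.00295). Poteml2 (2.73 ± 0.39, adjusted p = 0.000392) and the cytochrome Cyp3a9 (2.38 ± 0.55, adjusted p = 0.0211) complete the 15 largest, which also hold Lgr5, Slc1a2, Tbx3 and Cyp1a2. Pbsn and Cyp3a9 each lost their call in 4 of the 8 fits, among them those without the Glul-low tumours of rats 10 and 23 (adjusted p up to 0.220 and 0.153).

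**Figure D4:**
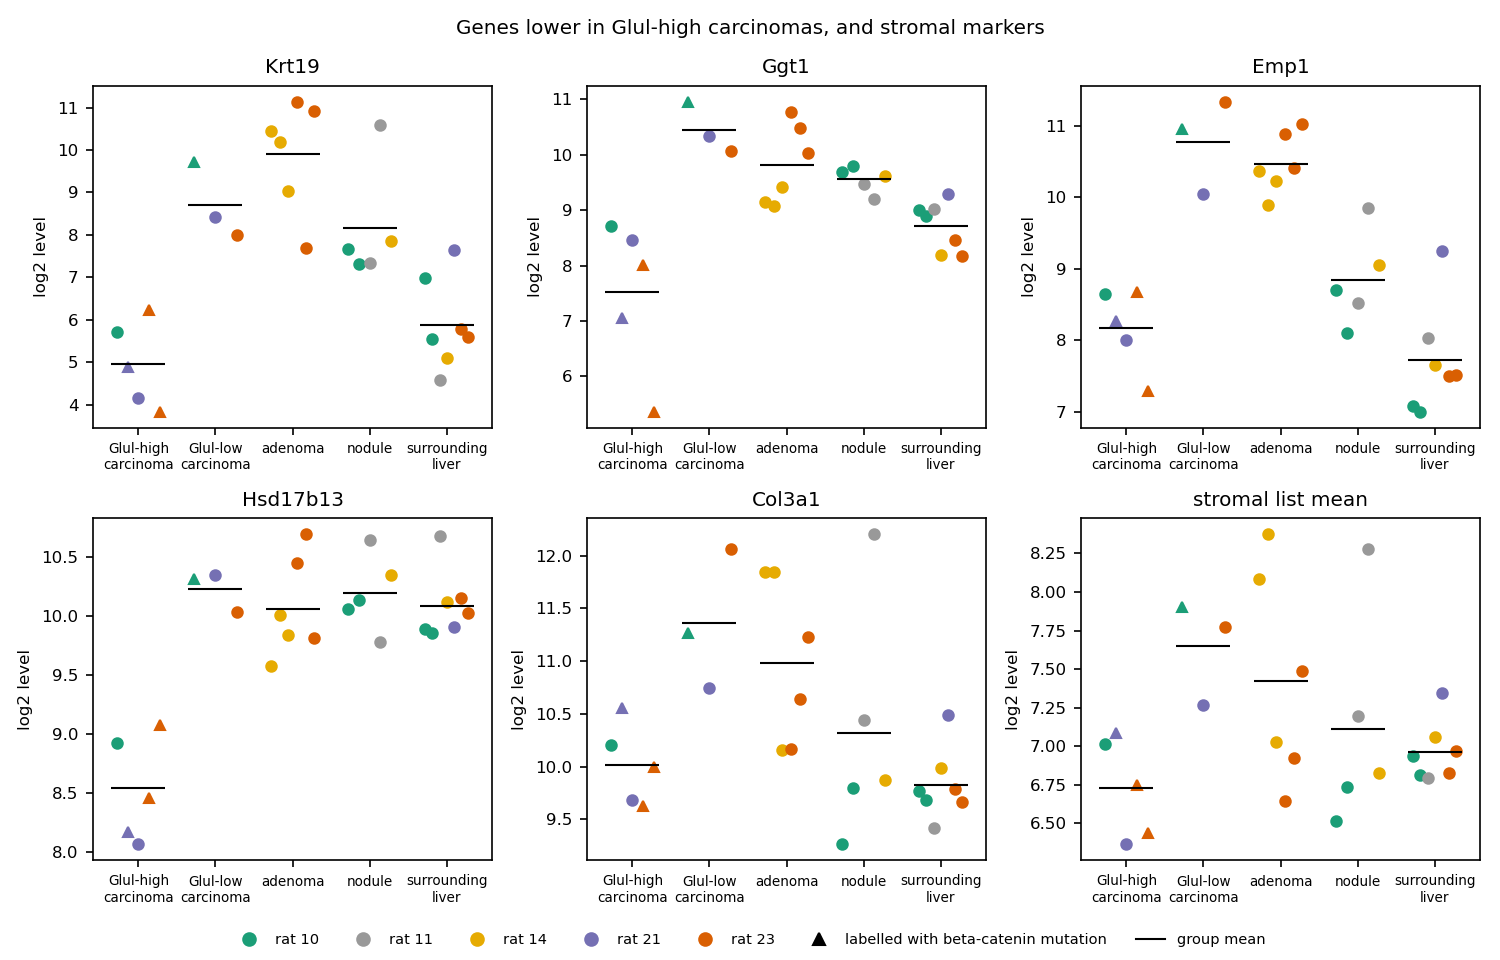
Log2 level (vertical axis) of 5 genes and the mean of the 16 stellate cell and fibroblast markers in each frozen array, by group (horizontal axis), with colours for rats, triangles for tumours labelled with a beta-catenin mutation and lines for group means. Ggt1 and Emp1 lay lower in all 5 Glul-high tumours than in all 3 Glul-low ones, and so did the stromal mean (6.36 to 7.09 against 7.27 to 7.90).

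Among the genes lower in Glul-high carcinomas were 2 markers of bile duct and progenitor cells and 2 of a list of focus and oncofetal markers. Krt19, a keratin of bile duct and progenitor cells, had 5.72, 4.90, 4.16, 6.22 and 3.83 in Glul-high tumours, against 9.72, 8.42 and 7.99 in Glul-low tumours and 4.58 to 7.64 in surrounding liver. The Glul-low tumours were all above the surrounding livers and the Glul-high tumours within or below their range. Adenomas had 7.69 to 11.14 and nodules 7.31 to 10.60, so the higher level was not particular to Glul-low carcinomas. The difference was -3.71 ± 0.85 (Glul-low 13.1-fold above, limma adjusted p = 0.0201), and Glul-low tumours rose by 2.75 against surrounding liver (adjusted p = 0.0327). The call was lost without the Glul-low tumour of rat 10 or that of rat 21 (adjusted p = 0.151 and 0.0543).

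Of the 7 measured bile duct and progenitor markers, 2 were lower in Glul-high carcinomas, beside 1.1% of all genes. They were Krt19 and the adhesion molecule Epcam. The median of the 7 was -0.78, and without the Glul-low tumour of rat 10 it was -0.05, with 0 called. Epcam had 9.56 to 9.86 in Glul-high tumours, against 10.41 to 11.02 in Glul-low tumours and 9.24 to 9.87 in surrounding liver (-0.92 ± 0.25, limma adjusted p = 0.0494), but its call was lost in all 8 fits without 1 carcinoma (adjusted p = 0.0622 to 0.321). The mean level of the 7 markers was 4.92 to 5.38 in Glul-high tumours, 5.57 to 7.74 in Glul-low tumours (median 5.82) and 5.14 to 5.73 in surrounding liver. It was 5.82 to 8.26 in adenomas and 5.74 to 7.77 in nodules. In bulk tissue, a different number of such cells and a different amount of RNA per cell cannot be told apart.

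Ggt1, the gamma-glutamyl transferase used to stain preneoplastic foci in rat liver, had 8.72, 7.05, 8.46, 8.0 and 5.35 in Glul-high tumours. It had 10.96, 10.34 and 10.07 in Glul-low tumours and 8.17 to 9.29 in surrounding liver. All 3 Glul-low tumours were above every surrounding liver, and of the Glul-high tumours 3 were below it and 2 within its range. Adenomas had 9.08 to 10.77 and nodules 9.20 to 9.81. Against surrounding liver, Ggt1 fell by 1.33 in Glul-high tumours (limma adjusted p = 0.0199) and rose by 1.55 in Glul-low tumours (adjusted p = 0.028). The difference was -2.88 ± 0.47 (limma adjusted p = 0.00151) and was called in all 8 fits without 1 carcinoma. With the carcinomas fitted alone Ggt1 was not called, with or without the rat as block. Defb1, an antimicrobial peptide, had 4.25 to 8.68 in Glul-high tumours and 8.73 to 10.86 in Glul-low tumours (-3.01 ± 0.76, adjusted p = 0.0341; lost in 5 of 8 fits, adjusted p up to 0.148). These were the 2 called of 19 measured focus and oncofetal markers, where 1.1% of all genes were lower and 1.8% higher. The median of the 19 was -0.34, and without the Glul-low tumour of rat 10 it was -0.10. The groups did not overlap for 2 of the 19 in the lower direction and 1 in the higher, beside 4.44% and 5.58% of all genes. With no block in the fit, 1 of the 19 was called higher and 1 lower.

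Emp1, an epithelial membrane protein, had 8.64, 8.27, 8.01, 8.67 and 7.29 in Glul-high tumours, against 10.95, 10.04 and 11.34 in Glul-low tumours and 6.99 to 9.25 in surrounding liver (-2.66 ± 0.44, limma adjusted p = 0.00159). In adenomas Emp1 was at 9.90 to 11.02, and in nodules at 8.10 to 9.85. Gria3, a glutamate receptor subunit, had 6.46, 5.50, 6.83, 3.89 and 3.20 in Glul-high tumours, against 9.66, 9.31 and 8.03 in Glul-low tumours and 6.56 to 7.49 in surrounding liver (-3.81 ± 0.64, adjusted p = 0.00172). Gria3 was the gene with the largest lower value, and rat 23 was lowest within each kind of tumour. Cdh13, a cadherin, was lower by 2.64 ± 0.71 (adjusted p = 0.0479) and lost its call in 7 of 8 fits (adjusted p up to 0.245). Cxcl14, a chemokine, was lower by 2.34 ± 0.44 (adjusted p = 0.00455; -0.30 and not called on its other probe set).

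Markers of stellate cells and fibroblasts leaned the same way, with no call. None of the 16 measured passed between Glul-high and Glul-low carcinomas, the median was -0.93, and 5 did not overlap in the lower direction, beside 4.44% of all genes. The mean level of the 16 was 7.01, 7.09, 6.36, 6.74 and 6.43 in Glul-high tumours, against 7.90, 7.27 and 7.78 in Glul-low tumours and 6.79 to 7.34 in surrounding liver. It was 6.64 to 8.38 in adenomas and 6.51 to 8.28 in nodules. The smallest p-values were those of the matrix protein Dcn (-2.0 ± 0.63, limma adjusted p = 0.0964) and the collagen Col3a1 (-1.37 ± 0.48, adjusted p = 0.142). Against surrounding liver, 1 of 16 rose and 3 fell in Glul-high carcinomas (10.3% and 11.1% of all genes), and 6 rose and 0 fell in Glul-low carcinomas (5.14% and 7.55% of all genes). The part of stromal RNA in the lower calls, Krt19, Emp1 and Cdh13 among them, was not tested.

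The 15 most lower genes also held 3 metabolic enzymes, Aass, Tdo2 and Aspg. Aass, the first enzyme of lysine breakdown, had 9.39, 5.31, 6.36, 5.26 and 4.24 in Glul-high tumours, against 10.98, 10.63 and 7.64 in Glul-low tumours and 11.18 to 11.65 in surrounding liver (-3.46 ± 0.74, limma adjusted p = 0.0115). The groups overlapped through the Glul-high tumour of rat 10 and the Glul-low tumour of rat 23. Tdo2, tryptophan dioxygenase, had 6.69 to 11.69 in Glul-high tumours and 10.18 to 13.42 in Glul-low tumours (-2.52 ± 0.63, adjusted p = 0.0321). Aspg, an asparaginase, had 5.43 to 7.28 in Glul-high tumours, against 7.89 to 8.99 in Glul-low tumours and 9.18 to 9.93 in surrounding liver (-2.41 ± 0.61, adjusted p = 0.0325). Aspg and Asns, which break down and make asparagine, thus differed in opposite directions. Without the Glul-low tumour of rat 10 none of Aass, Tdo2 and Aspg was called (adjusted p = 0.0809, 0.224 and 0.158), nor without that of rat 21 (0.0996, 0.0743 and 0.154). Tdo2 and Aspg lost their calls in 5 and 6 of the 8 fits.

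All 3 fibrinogen chains were lower in Glul-high carcinomas, and they were the 3 called of 17 acute phase genes (0 higher, median -0.40). Among all genes 1.1% were lower and 1.8% higher. Fgb had 12.99, 11.80, 12.27, 11.83 and 12.49 in Glul-high tumours, against 13.56, 13.01 and 12.92 in Glul-low tumours and 13.73 to 13.99 in surrounding liver (-0.82 ± 0.15, limma adjusted p = 0.00369). Only the Glul-high tumour of rat 10 reached the Glul-low range. Fga and Fgg were lower by 0.74 ± 0.16 and 0.66 ± 0.13 (adjusted p = 0.0136 and 0.00533). On other probe sets the sign turned for Fgb (0.093), and Fga had a value as small as -0.20. Fga lost its call without the Glul-low tumour of rat 10 or of rat 21 (adjusted p = 0.095 and 0.0659). Wfdc21 had 5.69 to 7.66 in Glul-high tumours, against 8.05 to 11.00 in Glul-low tumours and 8.69 to 10.02 in surrounding liver (-2.58 ± 0.44, adjusted p = 0.00189). Of 11 hepatocyte markers, 3 were lower (1.1% of all genes) and 0 higher (1.8% of all genes), with a median of -0.08. The 3 were Fgb, Tdo2 and the apolipoprotein Apoa1 (-1.04 ± 0.25, limma adjusted p = 0.0268). The mean level of the 11 was 12.72 to 13.42 in Glul-high tumours, 13.37 to 13.59 in Glul-low tumours and 13.67 to 13.76 in surrounding liver.

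Lipid and glucose genes gave few calls per list. Among all genes 1.8% were higher and 1.1% lower. Pdk4, a kinase that spares glucose, had 9.45 to 10.56 in Glul-high tumours, against 7.85 to 8.81 in Glul-low tumours and 8.84 to 10.29 in surrounding liver (1.34 ± 0.23, limma adjusted p = 0.0024). With the fatty acid hydroxylase Cyp4a1 (1.16 ± 0.28, adjusted p = 0.0267) it made the 2 called of 15 fatty acid oxidation genes. Of 17 fatty acid synthesis genes, Mlxipl, the sugar-sensing factor ChREBP, was higher (0.75 ± 0.18, adjusted p = 0.0267) and the desaturase Scd2 lower. Scd2 had 9.13, 10.03, 8.35, 9.15 and 6.45 in Glul-high tumours, against 12.45, 11.80 and 12.11 in Glul-low tumours and 8.96 to 11.53 in surrounding liver (-3.58 ± 0.64, adjusted p = 0.00337), while the smallest of its 4 probe sets was at -0.42. Of 16 glycolysis genes, Hk1, a hexokinase, was lower (-1.66 ± 0.37, adjusted p = 0.0149), with 0.16 on its other probe set. Of 15 cholesterol synthesis genes, Nsdhl was higher (0.63 ± 0.15, adjusted p = 0.0273). Of 18 bile acid genes, Cyp27a1 and Hsd3b7 were higher (Hsd3b7 by 0.85 ± 0.19, adjusted p = 0.0146). Pdk4 and Scd2 were called in all 8 fits without 1 carcinoma. With the carcinomas fitted alone, Scd2 was not called with or without the rat as block, and Pdk4 was not called without it. Hk1 and Hsd3b7 were not called without the Glul-low tumour of rat 10 or of rat 21 (adjusted p up to 0.0967 and 0.0923). Cyp4a1, Mlxipl and Nsdhl lost their calls in 5, 4 and 4 fits, each without either tumour of rat 10 (up to 0.252, 0.257 and 0.262).

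**Figure D5:**
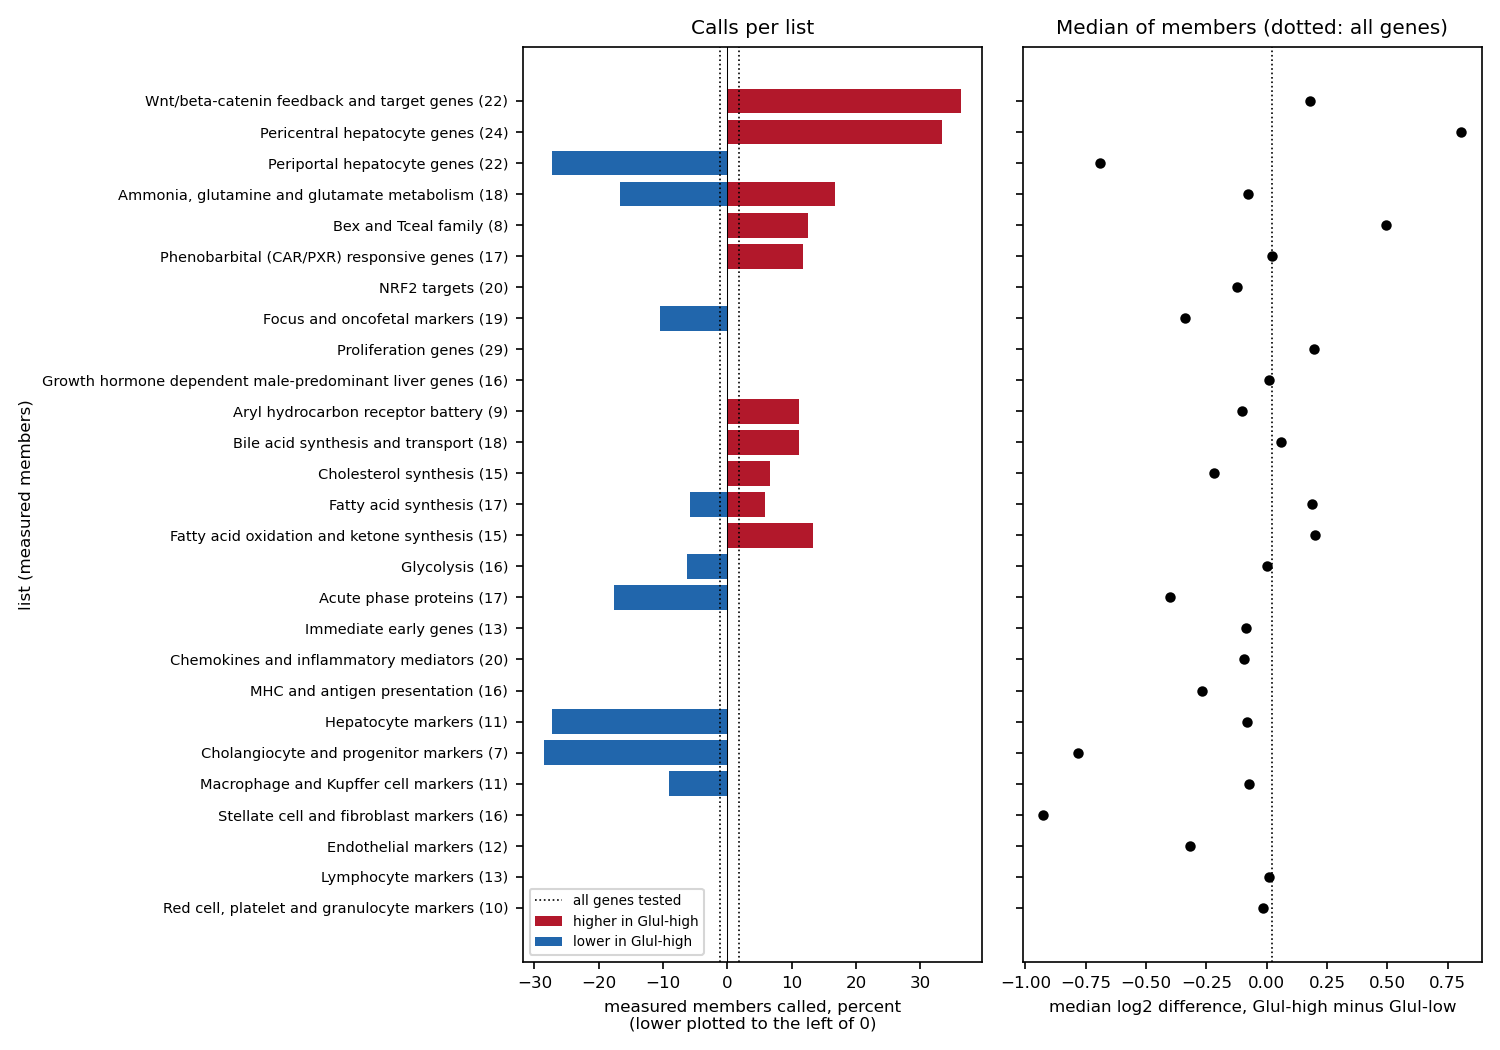
For each list of genes (vertical axis, measured members in brackets), the percent of members called higher or lower in Glul-high than in Glul-low carcinomas (left) and the median log2 difference of all measured members (right), with dotted lines for all genes tested. Wnt targets and pericentral genes had 8 calls each, all higher, and periportal genes 6, all lower.

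Other programmes of these lesions gave few calls or none between the 2 kinds of carcinoma. Among all genes 2.9% were called between the kinds, so 0 calls in a short list cannot show that the kinds are alike. Against surrounding liver, 10.3% of all genes rose and 11.1% fell in Glul-high carcinomas. In Glul-low carcinomas 5.14% rose and 7.55% fell. Of 20 NRF2 targets, the genes of a stress-response factor, 0 were called between the 2 kinds. Of these 20, 14 rose in Glul-high and 13 in Glul-low carcinomas against surrounding liver and 0 fell in either (medians 1.01 and 1.02). The smallest p-values between the kinds were those of the peroxidase Gpx2 (-1.35 ± 0.48, limma adjusted p = 0.148) and the transporter Abcc4 (1.11 ± 0.41, adjusted p = 0.169). Of 8 genes of the Bex and Tceal family, all 8 rose in Glul-high and 4 in Glul-low carcinomas against surrounding liver (medians 2.03 and 1.63). Between the kinds the family leaned higher in Glul-high carcinomas, with a median of 0.50 against 0.02 for all genes. The groups did not overlap for 3 of the 8 in the higher direction, beside 5.58% of all genes, and for 0 in the lower, beside 4.44%. Only Tceal5 was called (0.42 ± 0.11, limma adjusted p = 0.0386). It is a gene near the bottom of the scale, at 3.19 to 3.76 in Glul-high and 2.88 to 3.34 in Glul-low tumours.

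Of 29 proliferation genes, 0 were called between the kinds (median 0.20), beside 2.9% of all genes. Against surrounding liver 21 rose in Glul-high and 6 in Glul-low carcinomas, beside 10.3% and 5.14% of all genes. These counts come from 5 and 3 tumours, and the difference between them was not tested other than by the 0 calls. The smallest p-values were those of Pcna, the replication clamp (0.44 ± 0.15, limma adjusted p = 0.147), and the helicase subunit Mcm2 (0.59 ± 0.24, adjusted p = 0.234). Of 16 growth hormone dependent liver genes (plotted as male-predominant, though Cyp2c12 among them is not), 0 were called between the kinds. Against surrounding liver 10 fell in each kind, beside 11.1% of all genes in Glul-high and 7.55% in Glul-low carcinomas. The smallest limma p-values between the kinds were for Dhrs7l1 (2.12 ± 0.73, adjusted p = 0.137) and Hsd3b5 (-1.16 ± 0.62, adjusted p = 0.405). Of 17 phenobarbital-responsive genes, 2 were higher, beside 1.8% of all genes. They were Cyp3a9 and the stress gene Gadd45b (1.43 ± 0.28, limma adjusted p = 0.00654). Gadd45b lost its call without the Glul-low tumour of rat 21 (adjusted p = 0.0779). Of 9 genes of the aryl hydrocarbon receptor battery, Cyp1a2 alone was called, beside 2.9% of all genes.

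Of 11 macrophage markers, 1 was lower, beside 1.1% of all genes. It was the endotoxin receptor Cd14 (-1.13 ± 0.28, limma adjusted p = 0.0309). Cd14 lost its call in 4 of the 8 fits and Tceal5 and Apoa1 in 6 and 4, the highest p-values being without the Glul-low tumour of rat 10 for Cd14 and Tceal5 (adjusted p = 0.290 and 0.245) and without that of rat 23 for Apoa1 (0.174). Of 12 endothelial, 13 lymphocyte and 10 blood cell markers, 13 immediate early genes, 20 inflammatory mediators and 16 genes of antigen presentation, 0 were called between the 2 kinds of carcinoma by limma. The share called among all genes was 2.9%.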

How the data were processed

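Total RNA of frozen liver was hybridised to Affymetrix arrays of 1 colour. The authors deposited log2 levels per probe set, which were taken unchanged; background correction and normalization are not given in the sources used. Of 31042 probe sets, 20826 with 1 symbol were kept (436 had several, 9780 none), and 20758 of them matched RefSeq. The probe set with the highest mean stood for each of 14217 genes. Carcinoma arrays had medians of 5.51 to 5.55 and mean correlations with the other frozen arrays of 0.967 to 0.975. Their number limits the precision.

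All 26 labelled frozen arrays entered 1 fit in limma 3.58.1 (R 4.3.3), with the groups Glul-high, Glul-low, adenoma, nodule and surrounding liver, the rat as a fixed block, an intensity trend and 17 residual degrees of freedom. The 2 frozen arrays named C43 normal and the 19 arrays of fixed tissue entered no comparison. Calls used a threshold of 0.05 on p-values adjusted by Benjamini-Hochberg over 14216 genes, Glul left out, and errors beside differences are standard errors of the fit. The rat was taken from the sample title, because the source-animal field gives several numbers for rat 21. It pairs the samples, since tumours and surrounding liver share rats (median r of deviations from group means 0.132 within 50 pairs and -0.042 between rats). Where nothing says that tumours are separate, p-values measure the spread between these samples.

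The split, the lists and their members were chosen with earlier results of these data known. Named genes are the 15 most higher and 15 most lower calls with 1 sign in all 3 rats, any Wnt, pericentral or glutamine list member, and, of other lists, up to 4 called members or the 2 of smallest p. Lists are described by counts and medians, with no list test. The fit was tested on simulated data. Alternatives were the control set as a block, no block, quantile normalization, a filter on low levels, other variance settings, other probe sets, carcinomas alone, the mutation label, and leaving out arrays.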

Additional observations from a re-analysis of the deposited data

Results flagged for a closer look

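In 7 of 81 genes examined, 1 of the 5 Glul-high carcinomas lay apart from the other 4 by Dixon's gap criterion, which chance meets in about 1 of 20 groups. In rat 23 (beta-catenin replicate 4) Myc was at 8.51 with the nearest other tumour at 9.62, and Hk1 at 5.32 with the nearest at 5.81. The same tumour was highest for Oat (11.67, nearest 8.99), Cyp2e1 (14.34, nearest 13.50) and Pdk4 (10.56, nearest 9.75). The Glul-high tumour of rat 10 was highest for Wfdc21 (7.66, nearest 6.16) and Cxcl14 (6.70, nearest 5.30).

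In fixed tissue, which entered no comparison, Glul reached 11.03 in 1 of 5 adenomas and 10.77 in 1 of 9 foci, where the highest of 4 surrounding samples was 10.70. The 1 fixed array named C43 normal had 11.42, above all of these. Lgr5 reached 5.88 in adenomas, with 3 of 5 above all surrounding samples, and 5.43 in foci, with 4 of 9 above them, where the highest surrounding sample was 4.33. The C43 normal array had 4.30. Axin2 did not follow, with at most 7.53 in adenomas and 6.90 in foci, against 7.56 in the highest surrounding sample and 7.97 in C43 normal.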

How the results depend on the processing

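The 412 calls between Glul-high and Glul-low carcinomas became 118 with the carcinomas fitted alone with the animal as replicate block, 95 alone without it, 196 without both tumours of rat 10, and 0 by the mutation label; leaving out 1 carcinoma gave 134 to 416. With the replicate block dropped in the fit of all arrays 334 genes were called, and with the control set as block 468. With 1 probe set per gene, all of the 412 that were fitted kept their sign in each alternative (306 were fitted with the filter on low levels), except by the mutation label, where 351 of 412 did. Calls in Glul-high carcinomas against surrounding liver were 2243 to 3059 without 1 carcinoma. Those in Glul-low carcinomas (1803) were 845 with the control set as block, 578 without rat 10 and 722 to 1852 without 1 carcinoma. List members called (46) were 17 and 16 with carcinomas alone, with and without the block, 24 without rat 10, 0 by the mutation label and 16 to 43 without 1 carcinoma. Ccnd1 turned to -0.037 and -0.20 without the Glul-high tumour of rat 10 or the Glul-low tumour of rat 21, within -0.20 to 0.30 over all 8 such fits. By the mutation label the sign turned for Ccnd1 (-0.047), Myc (0.17), Cyp27a1 (-0.083), Cyp7a1 (-0.075), Asns (-0.0035), Cd14 (0.33), Mlxipl (-0.13), Tceal5 (-0.048) and Pcna (-0.017). On other probe sets it turned for Fgb (0.093) and Hk1 (0.16). Fewer arrays and the lost shared spread apply to the fits of carcinomas alone; otherwise the cause was not tested.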
